A study of Triticum aestivum with 24 samples.

Results

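A set of 78 wheat genes, of 105200 in the table, was described here: genes whose leaf transcripts stood higher in each growth regime that included elevated CO2 or elevated temperature than in both regimes that included neither. Plants of the bread wheat (Triticum aestivum) cultivar Alana were grown in 8 regimes with 3 biological replicates each, and poly-A RNA was sequenced from leaves 3 and 4 on each main tiller, sampled at growth stage 61 (the start of flowering). The regimes were CO2+temperature+drought, CO2+temperature, CO2+drought, temperature+drought, CO2 alone, temperature alone, drought alone and an untreated control. Elevated CO2 was 700 ppm, elevated temperature reached up to 31 °C, and droughted soil held 25 ± 5% water. All plants shared 1 cultivar, and the labels call the replicates biological without saying how pots or growth chambers were shared, so an effect of a chamber was not tested.

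Wheat fixes carbon by the C3 pathway, in which CO2 is limiting for Rubisco in normal air. More CO2 therefore favours carbon gain and tends to narrow the stomata, whereas heat speeds development, raises photorespiration and calls up protein chaperones. Drought closes stomata through abscisic acid and lowers the supply of CO2 inside the leaf. Bread wheat is hexaploid, and most genes have related copies on the corresponding chromosomes of the A, B and D subgenomes. Of the identifiers, 0 were found in the gene table at hand, so the members have no gene names or functions here, and leaf marker genes could not be looked up. The characters after the TraesCS prefix give the chromosome and subgenome.

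Levels are in FPKM, which divides fragments by transcript length and by library size. Each library was divided by its median over the 32436 genes with at least 1 FPKM everywhere, relative to the mean of those medians. This factor was 0.859 to 0.925 in the 6 temperature+drought and CO2+drought libraries and 1.015 to 1.072 in the other 18, so before scaling the 2 sets lay apart, along the lines of the groups. Nearly all values of those 6 libraries are also written with fewer decimals, and a difference in the authors' processing cannot be told apart from these 2 treatments. Within groups the lowest correlation between replicates across genes ranged from 0.930 in CO2+temperature+drought to 0.991 in CO2. Replicate 3 of CO2+temperature+drought stood apart for the members: its median member lay at 15.0 FPKM, against 24.8 and 23.8 FPKM in replicates 1 and 2. Counts and medians that it moves by over 1.5 times are also given without it.

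The members were chosen on the scaled values themselves. Group means were taken of log2(FPKM + 1). The lowest mean of the 6 groups with CO2 or temperature had to exceed the higher of the drought and control means by at least 0.6, and the top mean had to reach 2. The difference between these 6 groups and the 2 others is thus a description of the choice and was not tested. That gap ranged from 0.601 to 2.15 over the members, with a median of 0.739, and was at least 1 in 18 of them. All 78 passed the filter on low values, at least 1 FPKM in at least 3 libraries. The drought and control libraries alone would have passed 66 of them, and 12 passed only with the groups in which they were high. Among these 12 were TraesCS6D02G295500, TraesCS3A02G113100, TraesCS3B02G131000, TraesCS3B02G130300, TraesCS6B02G374100 and TraesCS1A02G420700. The large changes given for these genes below thus come from members that entered the tests only through those groups. Just inside the threshold were TraesCS3D02G022100 (0.601) and TraesCS3D02G075900 (0.601), and just outside were TraesCS7A02G450500 (0.595) and TraesCS4A02G203400 (0.587).

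The median member averaged 23.8 FPKM over the 18 libraries with CO2 or temperature and 3.22 FPKM over the 6 without. The ratio of these means had a median of 4.74 and was at least 5 in 37 members and at least 2 in 75. It was smallest at 1.89. In 68 of the 78 members every one of the 18 libraries lay above every one of the 6 (0.985% of the 45384 genes tested did so, a contrast the rule used). In the 10 members that overlapped, the lowest of the 18 libraries was CO2+temperature+drought replicate 3 in 7, temperature replicate 3 in 2 and CO2 replicate 2 in 1. Without CO2+temperature+drought replicate 3, the members with no overlap were 74 (1.38% of genes tested). In bulk leaf RNA, more transcript per cell and more cells of a type that expresses the gene cannot be told apart.

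The 6 groups were not equally high. Above the higher of drought and control, the median member stood 2.10 higher on the log2 scale in temperature+drought, 1.96 in CO2+temperature, 1.72 in CO2+drought and 1.68 in CO2+temperature+drought, but only 1.01 in CO2 alone and 0.946 in temperature alone. The highest group mean was in CO2+temperature for 33 members, temperature+drought for 21, CO2+drought for 13 and CO2+temperature+drought for 7. It was in CO2 alone for 3 and in temperature alone for 1. The lowest of the 6 means was in a single treatment for 65 members, 35 in temperature alone and 30 in CO2 alone. The highest and lowest of the 6 differed within a member by 0.289 to 5.77 on the log2 scale, with a median of 1.84.

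**Figure D1:**
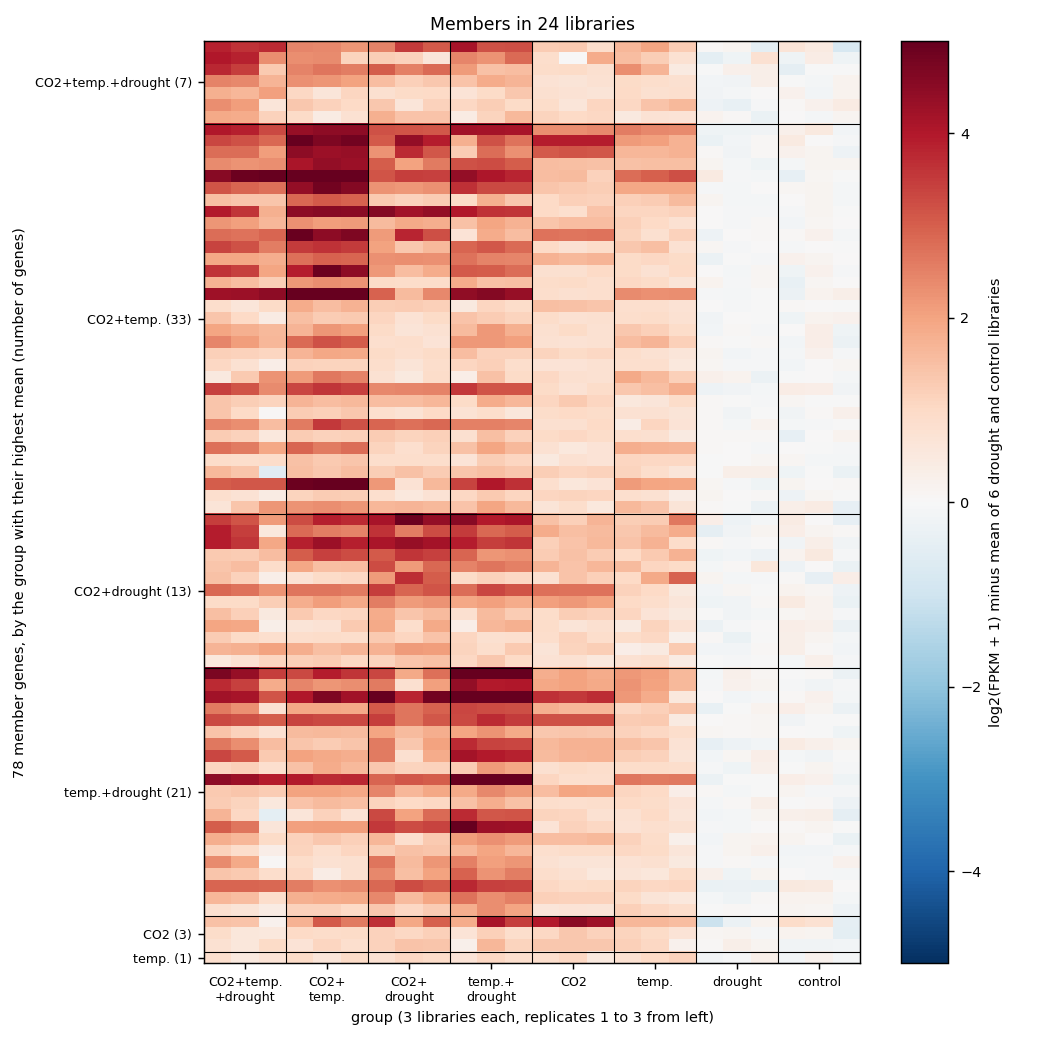
Heat map of log2(FPKM + 1) in the 78 members (rows, sorted by the group with their highest mean) and 24 libraries (columns, 3 per group), relative to each gene's mean over the 6 drought and control libraries, with colour saturating at 5 on the log2 scale. The 2 rightmost groups are near white throughout, the single treatments are pale, and the blocks of strongest red sit under CO2+temperature (33 members) and temperature+drought (21 members).

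TraesCS2D02G276000, on chromosome 2D, had the widest gap (2.15). It stood at 52.7, 48.7 and 31.5 FPKM in CO2+temperature+drought, 66.5, 71.8 and 72.5 in CO2+temperature, 28.8, 28.6 and 27.9 in CO2+drought, and 60.5, 58.3 and 56.2 in temperature+drought. With 1 treatment it stood at 15.8, 15.5 and 16.5 FPKM in CO2 and 18.7, 16.5 and 16.0 in temperature, against 1.86, 1.85 and 1.95 in drought and 2.93, 3.69 and 2.02 in control. CO2 and temperature alone brought this gene to about the same level, and the combinations lay above both with no overlap.

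TraesCS1D02G428600, on 1D, had a gap of 1.83 and a different order of groups. Its levels were 29.7, 26.5 and 21.4 FPKM in CO2+temperature+drought, 98.4, 75.7 and 84.6 in CO2+temperature, 24.1, 63.5 and 45.5 in CO2+drought, and 9.53, 26.9 and 18.8 in temperature+drought. They were 44.9, 45.3 and 45.7 FPKM in CO2 and 12.3, 11.4 and 9.18 in temperature, against 1.42, 1.75 and 2.16 in drought and 3.13, 2.08 and 1.94 in control. CO2 alone thus stood above temperature alone in every library.

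TraesCS3B02G384900, on 3B, had a gap of 1.83 and was highest in temperature+drought, at 173, 184 and 152 FPKM. Its other levels were 113, 87.7 and 47.0 FPKM in CO2+temperature+drought, 42.5, 64.8 and 51.3 in CO2+temperature, and 43.3, 15.0 and 28.5 in CO2+drought. CO2 alone gave 14.4, 16.6 and 14.9 FPKM and temperature alone 18.3, 17.1 and 12.4, against 3.04, 4.15 and 3.66 in drought and 3.30, 3.58 and 2.59 in control. The 3 members with the widest gaps therefore each peaked differently among the 6 regimes or ranked them differently.

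The 3 most abundant members per transcript length had ratios below the median of 4.74. This did not hold for all abundant members, and TraesCS4B02G059500 and TraesCS6D02G295500 had ratios above that median. TraesCS6B02G161600 averaged highest over the 18 libraries, at 123, 103 and 77.4 FPKM in CO2+temperature+drought, 138, 145 and 140 in CO2+temperature, 181, 138 and 162 in CO2+drought, and 182, 220 and 174 in temperature+drought. It stood at 116, 122 and 119 FPKM in CO2 and 102, 94.9 and 85.5 in temperature, against 49.0, 47.4 and 48.7 in drought and 45.9, 44.8 and 39.2 in control. Its ratio of means was 2.94, and those of TraesCS2B02G239200 and TraesCS2D02G313700, the next in abundance, were 3.44 and 2.27. TraesCS2B02G239200 was set apart by CO2+temperature, at 235, 270 and 249 FPKM, while its 15 other libraries with CO2 or temperature had group means of 68.6 to 85.2 FPKM.

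**Figure D2:**
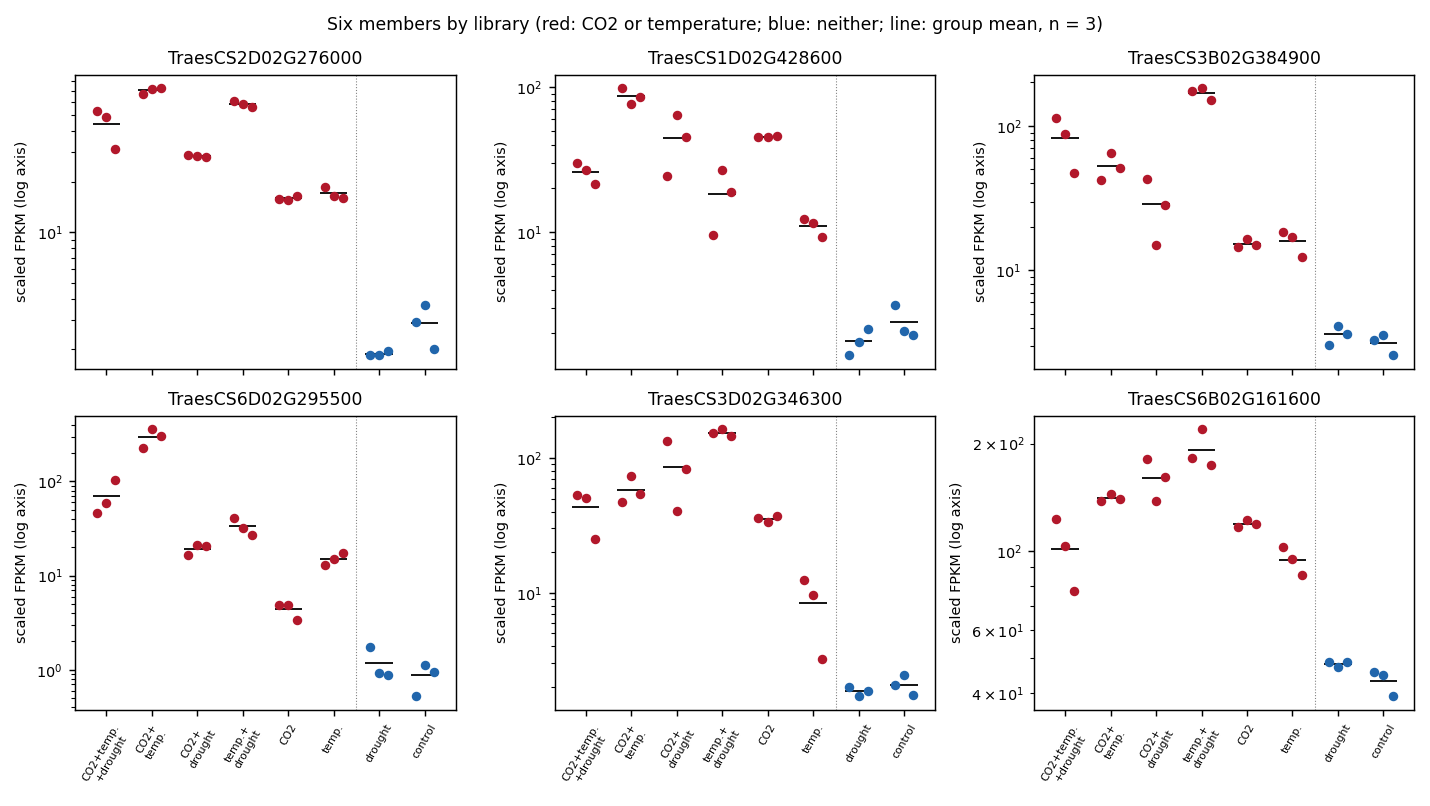
Scaled FPKM (log axis) of 6 members in each library, by group, with lines at the mean of 3 libraries. TraesCS2D02G276000, TraesCS1D02G428600 and TraesCS3B02G384900 had the widest gaps of the members, and TraesCS6B02G161600 was the most abundant. TraesCS6D02G295500 rose most in CO2+temperature over either single treatment, and TraesCS3D02G346300 rose most with drought under temperature. In all 6 genes each red point lies above each blue point.

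The rule set a floor for the 6 groups and no order among them, nor between drought and control. Those differences were tested on the whole table with limma, with 1 coefficient per group over all 24 libraries, and a gene was called at a Benjamini-Hochberg adjusted p under 0.05. The floor still bears on them. Over all genes tested, 9.9% lay at least 0.6 above both drought and control in temperature+drought, 9.22% in CO2+drought, 5.22% in CO2+temperature+drought, 5.07% in CO2+temperature, 5.14% in CO2 and 1.47% in temperature. A group in which more genes clear the floor may also stand higher among genes that clear it, so the counts below describe these members, and the share that the choice sets was not tested. The floor also limits falls, since each group with an added treatment had to clear 0.6 as well. The median member stood only 0.946 above the higher of drought and control in temperature and 1.01 in CO2, against 1.96 in CO2+temperature. Falls from a single treatment thus had little room, and all genes tested had no such limit.

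Drought alone was compared with control first. The rule measured its gap from the higher of these 2 groups, so the choice may have disfavoured genes that drought moved. How far this lowered the counts below was not tested. The call was made in 1 of the 78 members (1.28%, against 1.79% of all genes tested, 0.91% lower), and it was lower. The median change was -0.0361 on the log2 scale over the members and -0.0047 over all genes, and 4 members (5.13%) had an unadjusted p under 0.05, against 13.8% of all genes tested. The called gene, TraesCS1A02G285000, stood at 9.71, 10.0 and 9.78 FPKM in drought, against 18.2, 17.4 and 12.9 in control (log2 change -0.65, SE 0.12; limma, adjusted p = 0.0037). The groups did not overlap, but the call was lost without control replicate 1 (limma, adjusted p = 0.051) and the count was then 0. It was by contrast at 102, 100.3 and 98.9 FPKM in CO2+temperature+drought and 182, 145 and 141 in temperature+drought.

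CO2 and temperature together were next compared with each alone. Against temperature, CO2+temperature was higher in 47 members and lower in 0 (60.3% of members called, against 13.4% of all genes tested, 7.38% higher and 5.98% lower), with a median change of 0.946 over members and 0.014 over all genes. Against CO2, CO2+temperature was higher in 44 members and lower in 1 (57.7% called, against 22.7% of all genes tested, 12.6% higher and 10.1% lower), with medians of 0.677 and 0.036. These comparisons share the CO2+temperature libraries. The rule itself held CO2+temperature above the floor, and many single-treatment means lay not far above it. A called fall was thus out of reach for many members, and the splits restate the choice in part. How far they do was not tested.

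The widest of these changes was in TraesCS6D02G295500, on 6D. It stood at 229, 360 and 301 FPKM in CO2+temperature, against 12.9, 14.9 and 17.6 in temperature (log2 change 4.19, SE 0.24; limma, adjusted p = 2e-10). The 3 CO2 libraries lay at 4.89, 4.93 and 3.39 FPKM, so the same CO2+temperature libraries were higher by 5.77 on the log2 scale (SE 0.24; limma, adjusted p = 2.5e-12). Without either treatment it stood at 1.74, 0.931 and 0.884 FPKM in drought and 0.523, 1.14 and 0.959 in control. Both single treatments thus lay above these 6 libraries, and their combination lay above all other groups.

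TraesCS4B02G059500, on 4B, followed the same order, with 239, 280 and 260 FPKM in CO2+temperature, 6.79, 6.25 and 6.54 in CO2 and 20.7, 19.7 and 20.3 in temperature. Its change from CO2 was 5.11 (SE 0.21; limma, adjusted p = 2.5e-12). TraesCS1A02G420700, on 1A, was raised over temperature by 3.67 (SE 0.29; limma, adjusted p = 2.8e-08), at 38.9, 28.1 and 32.2 FPKM in CO2+temperature against 1.85, 1.26 and 1.89 in temperature. The only called fall was TraesCS4D02G240400, on 4D, at 38.1, 96.8 and 70.1 FPKM in CO2+temperature against 179, 260 and 217 in CO2 (log2 change -1.75, SE 0.53; limma, adjusted p = 0.022). That call was lost without CO2 replicate 2, CO2 replicate 3 or CO2+temperature replicate 1, with adjusted p up to 0.11 (limma).

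CO2 alone and temperature alone were compared directly. CO2 was higher in 15 members and lower in 10 (32.1% called, against 27% of all genes tested, 12.9% higher and 14.1% lower), and the median change was 0.0247 over members and -0.025 over all genes. The share called was thus close to that of all genes, and 53 members were not called. Under drought, CO2+drought was higher than temperature+drought in 7 members and lower in 32 (50% called, against 34.7% of all genes tested, 17.8% higher and 17% lower), with medians of -0.261 and 0.0062. These 2 comparisons share no library. Of the 10 members lower in CO2, 9 were also lower in CO2+drought and 0 were higher, while of all 6392 genes lower in CO2, 34.7% were lower and 5.93% higher. Of the 15 members higher in CO2, 4 were higher in CO2+drought, 4 were lower and 7 were not called, while of all 5871 such genes, 46% were higher and 8.93% lower.

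Of the members higher in CO2, TraesCS5B02G414000 on 5B stood at 31.7, 31.7 and 32.0 FPKM in CO2, against 7.73, 7.96 and 3.98 in temperature (log2 change 2.17, SE 0.18; limma, adjusted p = 9.2e-08). TraesCS4D02G240400 stood at 179, 260 and 217 FPKM in CO2, against 35.6, 35.4 and 32.3 in temperature (log2 change 2.62, SE 0.53; limma, adjusted p = 0.0011). In the other direction, TraesCS1B02G294300 on 1B had 11.3, 9.64 and 9.50 FPKM in CO2, against 37.0, 35.3 and 35.6 in temperature (log2 change -1.73, SE 0.14; limma, adjusted p = 4.2e-08). TraesCS6D02G295500 was also lower in CO2, by a log2 change of -1.58 (SE 0.24; limma, adjusted p = 7.6e-05). The libraries of both groups did not overlap in any of these 4 genes.

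Under drought some genes differed widely. TraesCS3B02G384900 had 43.3, 15.0 and 28.5 FPKM in CO2+drought, against 173, 184 and 152 in temperature+drought (log2 change -2.63, SE 0.29; limma, adjusted p = 8.7e-07). TraesCS4D02G208800, on 4D, had 33.9, 8.86 and 22.6 FPKM in CO2+drought, against 118, 87.0 and 90.2 in temperature+drought (log2 change -2.29; limma, adjusted p = 9.2e-05). TraesCS5A02G268400, on 5A, had 10.8, 33.8 and 20.6 FPKM in CO2+drought, against 4.22, 4.98 and 4.44 in temperature+drought (log2 change 1.90; limma, adjusted p = 0.00076). TraesCS1A02G420700 was higher too, with a log2 change of 1.71 (SE 0.29; limma, adjusted p = 0.00013). The CO2+drought libraries spread widely in each of these genes, with replicates 1 and 2 at opposite ends and replicate 3 between them.

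**Figure D3:**
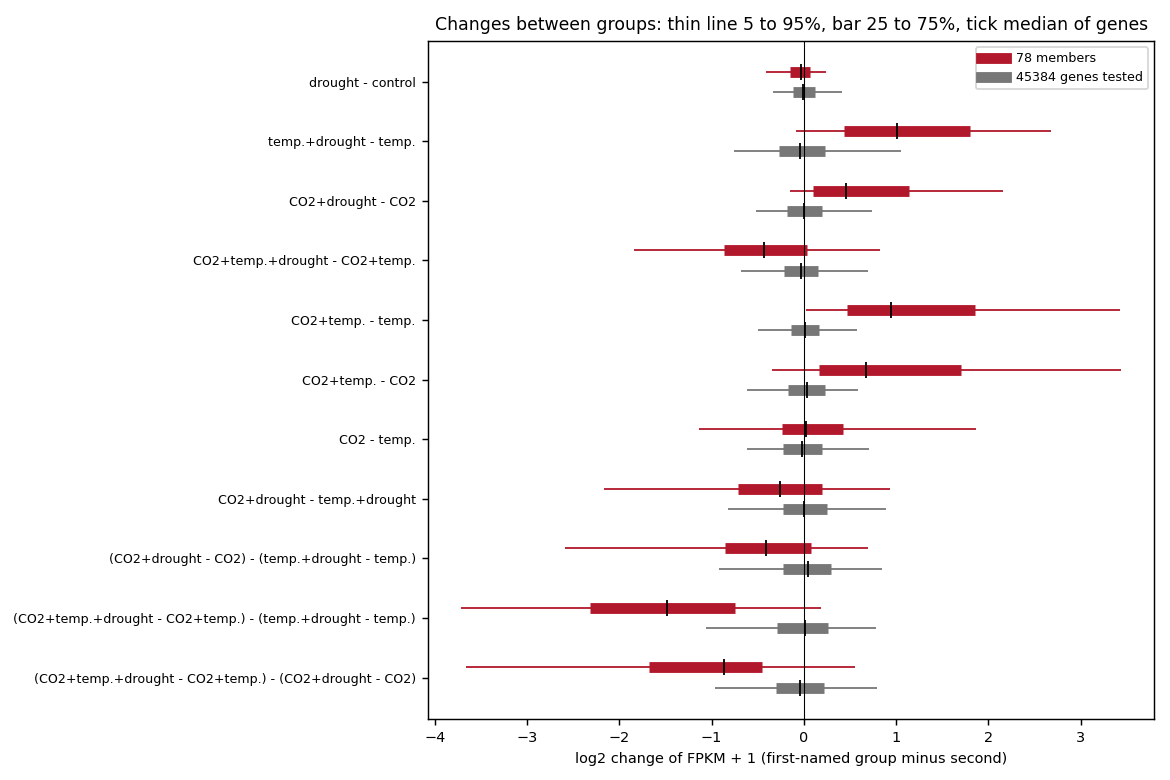
Log2 change of FPKM + 1 in 11 comparisons (rows), for the 78 members (red) and the 45384 genes tested (grey), as the 5th to 95th percentile of genes (line), the 25th to 75th (bar) and the median (tick). The members lie mostly right of 0 for temperature+drought against temperature (71 of 78, median 1.01) and CO2+temperature against temperature (75 of 78, median 0.946), and lie mostly left of 0 for CO2+temperature+drought against CO2+temperature (56 of 78, median -0.436, or -0.195 without CO2+temperature+drought replicate 3).

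Drought was then followed in plants that already had another treatment, in 3 comparisons that share no library. Added to temperature, it raised 52 members and lowered 0 (66.7% called, against 37.5% of all genes tested, 18.1% higher and 19.4% lower), with a median change of 1.01 over members and -0.039 over all genes. Added to CO2, it raised 36 and lowered 1 (47.4% called, against 20.7% of all genes tested, 11.3% higher and 9.4% lower), with medians of 0.459 and 0.0031. Added to CO2 and temperature together, it raised 7 and lowered 30 (47.4% called, against 23% of all genes tested, 9.55% higher and 13.4% lower), with medians of -0.436 and -0.026. That split rests in part on 1 library: without CO2+temperature+drought replicate 3, drought raised 17 members and lowered 27 (10.3% higher and 12.8% lower among all genes tested), and the median over members was -0.195. The 7 rises became 4 without replicate 1 or 2 of that group or CO2+temperature replicate 3. In fits to only the libraries compared, drought raised 4 members and lowered 22 under CO2+temperature (17.3% of all genes tested called). It then raised 50 and lowered 0 under temperature (23.2%), and raised 42 and lowered 3 under CO2 (27.5%). In the first 2 comparisons the floor left most members little room to fall, so few falls could be called, whereas all genes had no such limit. These 2 comparisons also set groups with low scaling factors against groups with high ones. In the values as deposited, the median of all genes was -0.19 in both, and the counts were 50 higher and 3 lower for temperature+drought (median over members 0.81) and 29 higher and 4 lower for CO2+drought (median 0.209).

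By member, 16 (20.5%, against 3.29% of all genes tested) rose with drought under temperature and under CO2 and were not called under both together. A rise in the first 2 backgrounds with a fall in the third was called in 13 (16.7%, against 0.698% of all genes), and in 12 none of the 3 changes was called (15.4%, against 44.6%). The rise under temperature was the only call in 10 (12.8%, against 7.53%), and the fall under CO2+temperature in 8 (10.3%, against 5.16%). A rise in all 3 backgrounds was called in 3 members (3.85%, against 1.41%). Without CO2+temperature+drought replicate 3 that last count was 8, and the members with no call were 5. These joint counts rest on the same calls as the single comparisons, with the same limit on falls, and were not tested further. Across the 78 members, the change under temperature correlated with the change under CO2 at r = 0.471 (Spearman's rho 0.492), and 61 had the same sign. It correlated with the change under CO2+temperature at r = 0.0894 (rho 0.0536), with 25 of the same sign. The change was above 0 in 71 members under temperature, 64 under CO2 and 22 under CO2+temperature. The counts of shared signs follow largely from these 3 numbers and say little about single genes.

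The largest rise with drought under temperature was in TraesCS3D02G346300, on 3D. It stood at 153, 164 and 146 FPKM in temperature+drought, against 12.4, 9.59 and 3.24 in temperature (log2 change 4.20, SE 0.37; limma, adjusted p = 4.3e-08). TraesCS6B02G374100, on 6B, stood at 50.2, 27.6 and 27.4 FPKM in temperature+drought, against 1.49, 1.65 and 1.54 in temperature (log2 change 3.76, SE 0.38; limma, adjusted p = 2.1e-07). In both genes every temperature+drought library lay more than 10 times above every temperature library.

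Under CO2, the largest rises were in TraesCS3A02G113100 and TraesCS3B02G131000, on 3A and 3B. Both passed the filter on low values only with the groups in which they were high. The 3A gene stood at 23.9, 17.9 and 20.6 FPKM in CO2+drought, against 1.05, 0.874 and 1.80 in CO2 (log2 change 3.30, SE 0.33; limma, adjusted p = 1.2e-06). Without CO2 or temperature it was near or listed at 0, at 0.0619, 0 and 0 FPKM in drought and 0, 0.138 and 0.0352 in control. The 3B gene stood at 26.2, 46.0 and 32.7 FPKM in CO2+drought, against 3.40, 2.65 and 4.13 in CO2 (log2 change 3.01, SE 0.35; limma, adjusted p = 7.3e-06). The single called fall was small: TraesCS3D02G022100 stood at 72.1, 57.2 and 65.9 FPKM in CO2+drought, against 83.7, 87.0 and 83.9 in CO2 (log2 change -0.38, SE 0.13; limma, adjusted p = 0.035). It was lost with no filter on low values and without any one CO2 library, or without CO2+drought replicate 2 or 3, with adjusted p up to 0.15 (limma).

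Under CO2+temperature, drought lowered TraesCS6D02G295500 to 46.2, 59.4 and 103 FPKM in CO2+temperature+drought, against 229, 360 and 301 in CO2+temperature (log2 change -2.13, SE 0.24; limma, adjusted p = 3.4e-06). TraesCS4A02G255700, on 4A, stood at 21.4, 22.5 and 22.6 FPKM in CO2+temperature+drought, against 81.5, 110.2 and 95.9 in CO2+temperature (log2 change -2.05, SE 0.23; limma, adjusted p = 3.1e-06). Both still lay above their CO2, temperature, drought and control libraries. Among the 7 that rose, TraesCS7B02G259000 on 7B stood at 43.0, 36.0 and 38.9 FPKM in CO2+temperature+drought, against 15.6, 14.9 and 13.0 in CO2+temperature (log2 change 1.38, SE 0.32; limma, adjusted p = 0.0039). TraesCS7D02G010900, a low gene on 7D, stood at 6.33, 5.80 and 7.84 FPKM, against 3.38, 2.29 and 3.54 in CO2+temperature (log2 change 0.92, SE 0.15; limma, adjusted p = 0.00017).

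Whether the drought changes differed between backgrounds was tested as interactions. The change under CO2 was smaller than the change under temperature in 21 members and larger in 2 (29.5% called, against 20% of all genes tested, 9.81% smaller and 10.1% larger), with medians of -0.409 over members and 0.045 over all genes. The change under CO2+temperature was smaller than the change under temperature in 56 members and larger in 1 (73.1% called, against 22.4% of all genes tested, 13.1% smaller and 9.29% larger), with medians of -1.48 and 0.011. It was smaller than the change under CO2 in 45 members and larger in 1 (59% called, against 20.4% of all genes tested, 12% smaller and 8.43% larger), with medians of -0.868 and -0.038. The last 2 tests were added after the data were seen, and each shares libraries with another. The floor left more room to fall from CO2+temperature than from either single treatment. The choice of members thus itself favours smaller changes under CO2+temperature, and its share in these splits was not tested. Without CO2+temperature+drought replicate 3, the members with a larger change under CO2+temperature than under CO2 were 5 and those with a smaller one 42 (9.62% and 12.5% of all genes tested). Compared with the change under temperature, they were then 2 and 54 (9.62% and 13% of all genes tested). In the values as deposited, the change under CO2+temperature was larger than under CO2 in 1 member and smaller in 34 (22.1% and 6.57% of all genes tested; median over members -0.612). It was larger than under temperature in 1 and smaller in 52 (21.2% and 8.12%; median -1.25). The change under CO2 was then larger than under temperature in 2 and smaller in 21 (8.24% and 11.1%; median -0.462). The count for CO2 against temperature was 38 (33 smaller, 5 larger; 25.5% of all genes tested were called) without temperature+drought replicate 1 and CO2+temperature+drought replicate 3, the libraries farthest from their groups over all genes, a choice made after seeing the data.

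Single genes showed how the changes under CO2 and under temperature parted. TraesCS3D02G346300 stood at 133, 40.4 and 82.3 FPKM in CO2+drought, against 36.0, 33.3 and 37.3 in CO2, a smaller rise than under temperature (difference of log2 changes -3.12, SE 0.52; limma, adjusted p = 0.00028). TraesCS4D02G240400 stood at 143, 42.8 and 90.8 FPKM in CO2+drought, against 179, 260 and 217 in CO2, and at 41.4, 201 and 126 in temperature+drought, against 35.6, 35.4 and 32.3 in temperature (difference -2.92, SE 0.75; limma, adjusted p = 0.0087). The drought libraries of this gene spread over several-fold in both backgrounds. TraesCS5A02G268400 went the other way (difference 2.72, SE 0.55; limma, adjusted p = 0.0016), with CO2 libraries at 3.51, 6.24 and 5.08 FPKM and temperature libraries at 4.31, 8.99 and 19.4. TraesCS6B02G346700, on 6B, stood at 74.2, 106 and 92.8 FPKM in CO2+drought, against 20.3, 23.4 and 20.4 in CO2. Under temperature it stood at 66.7, 40.3 and 42.2 FPKM with drought, against 16.7, 21.0 and 28.4 without (difference 0.89, SE 0.27; limma, adjusted p = 0.024).

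**Figure D4:**
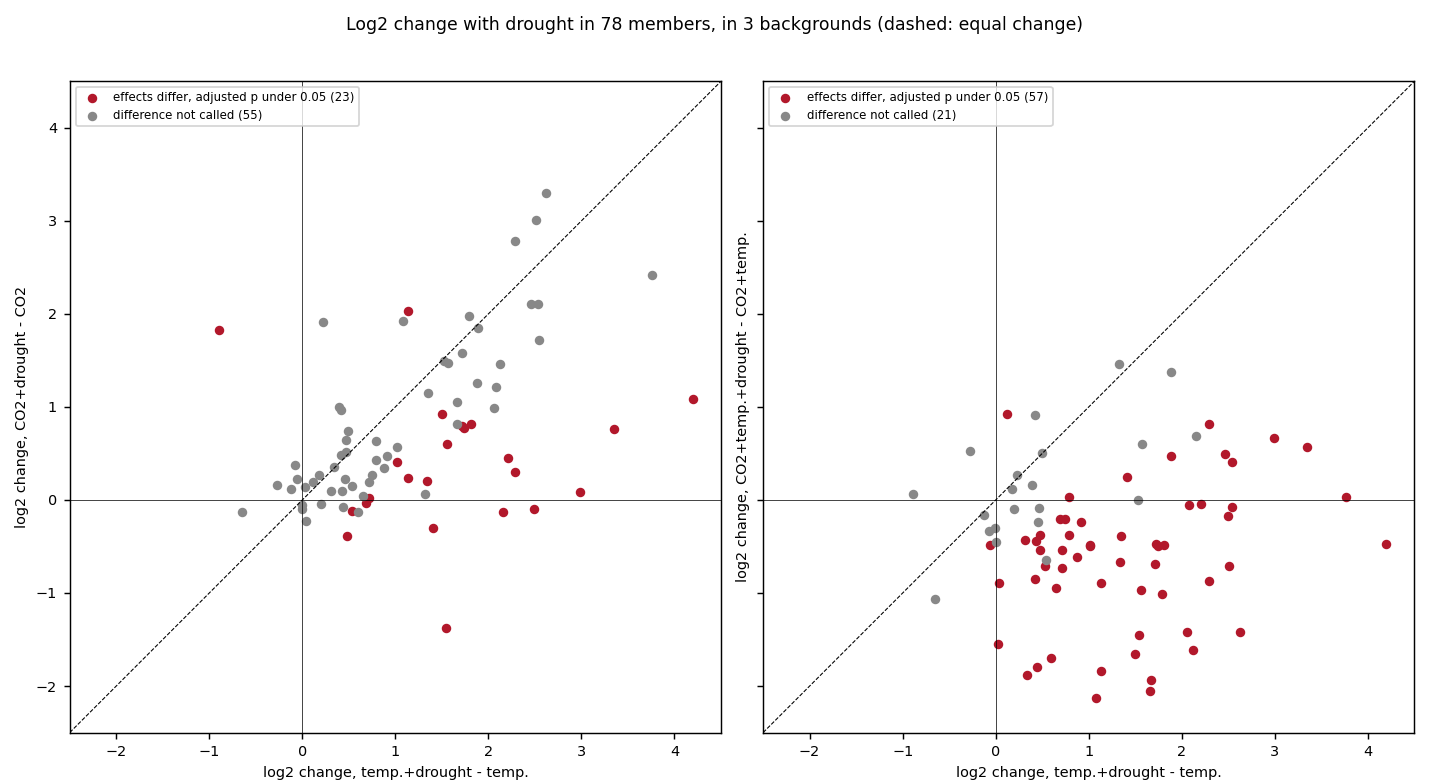
Log2 change with drought in each of the 78 members under temperature (horizontal axis) against the change under CO2 (left) and under CO2+temperature (right), with red points where the 2 changes differed (23 and 57 members; limma, adjusted p under 0.05) and a dashed line of equal change. In the left panel most points lie right of 0 and above 0, and in the right panel most lie below the dashed line and many below 0.

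The spread between replicates was wider among members than among all 27920 genes with a mean log2(FPKM + 1) of at least 2 in each of the 8 groups. These genes were not matched to the members in level. The median SD of log2(FPKM + 1) was 0.398 over members in CO2+temperature+drought (n = 3 libraries), against 0.147 over those genes. In CO2+temperature it was 0.124 against 0.0989, and in CO2 0.0843 against 0.0802. In CO2+drought it was 0.195 against 0.116, in temperature+drought 0.228 against 0.185 and in temperature 0.213 against 0.122. In drought it was 0.129 against 0.094, and in control 0.175 against 0.106. The members in CO2+temperature+drought replicate 3 lay below their group means by a median of -0.374 and those in replicate 1 above by 0.268, while medians over all genes were -0.005 and 0.0128.

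The members lay on all 21 chromosomes, with 26 on the A, 28 on the B and 24 on the D subgenome (33.3%, 35.9% and 30.8%, against 33.7%, 32.4% and 33.9% of the genes tested). Group 4 chromosomes held 17 members (21.8%, against 12.6% of genes tested) and group 6 held 14 (17.9%, against 12%), whereas group 5 held 7 (8.97%, against 16.2%). These shares are descriptions without a test. No run of 3 or more members stood close together by identifier (0 runs, with steps of at most 1000). The only close pair was TraesCS3B02G130300 and TraesCS3B02G131000.

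Some members had their most similar partner on a corresponding chromosome. For each member, the other member with the highest correlation of log2(FPKM + 1) over the 24 libraries was found. In 22 of 78 (28.2%) it lay on the same chromosome group in another subgenome, against 10.2% of all other members on average. Each gene was the nearest of the other in 13 pairs of members. Of these, 6 were of this kind, with r from 0.974 to 0.990. Correlations here share the contrast that chose the members, so high values are built in, and no p is given. The files do not say which genes are copies of each other, nor how fragments shared by near-identical copies were divided, so similar profiles in such a pair may in part be shared reads.

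These pairs were named after their values were seen, and some differed in level while others were close. TraesCS1B02G451900 stood at 131, 112 and 119.5 FPKM in CO2+temperature, 48.5, 51.3 and 50.4 in CO2 and 17.6, 17.6 and 18.7 in temperature, against 5.76, 5.48 and 4.00 in control. Its partner TraesCS1D02G428600 ranked these 4 groups alike. TraesCS1A02G420700, whose nearest member was also TraesCS1B02G451900, was likewise highest in CO2+temperature and, of the 6 groups, lowest in temperature. TraesCS4B02G207900 and TraesCS4D02G208800 both peaked in temperature+drought, at 202, 175 and 163 and at 118, 87.0 and 90.2 FPKM. TraesCS4A02G255700 and TraesCS4B02G059500 both peaked in CO2+temperature. TraesCS3A02G113100 and TraesCS3B02G130300 were near 0 without CO2 or temperature and highest in CO2+temperature and CO2+drought, with close means of 22.7 and 22.4 FPKM in CO2+temperature. TraesCS5A02G409600 and TraesCS5B02G414000 stood low in temperature alone, at 7.73, 6.88 and 4.44 FPKM in the 5A gene, and several-fold higher in each of the 5 other groups with CO2 or temperature. TraesCS5A02G384600 and TraesCS5D02G394300 were the flattest of the 6 pairs, with ranges over the 6 groups of 0.530 and 0.431 on the log2 scale.

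**Figure D5:**
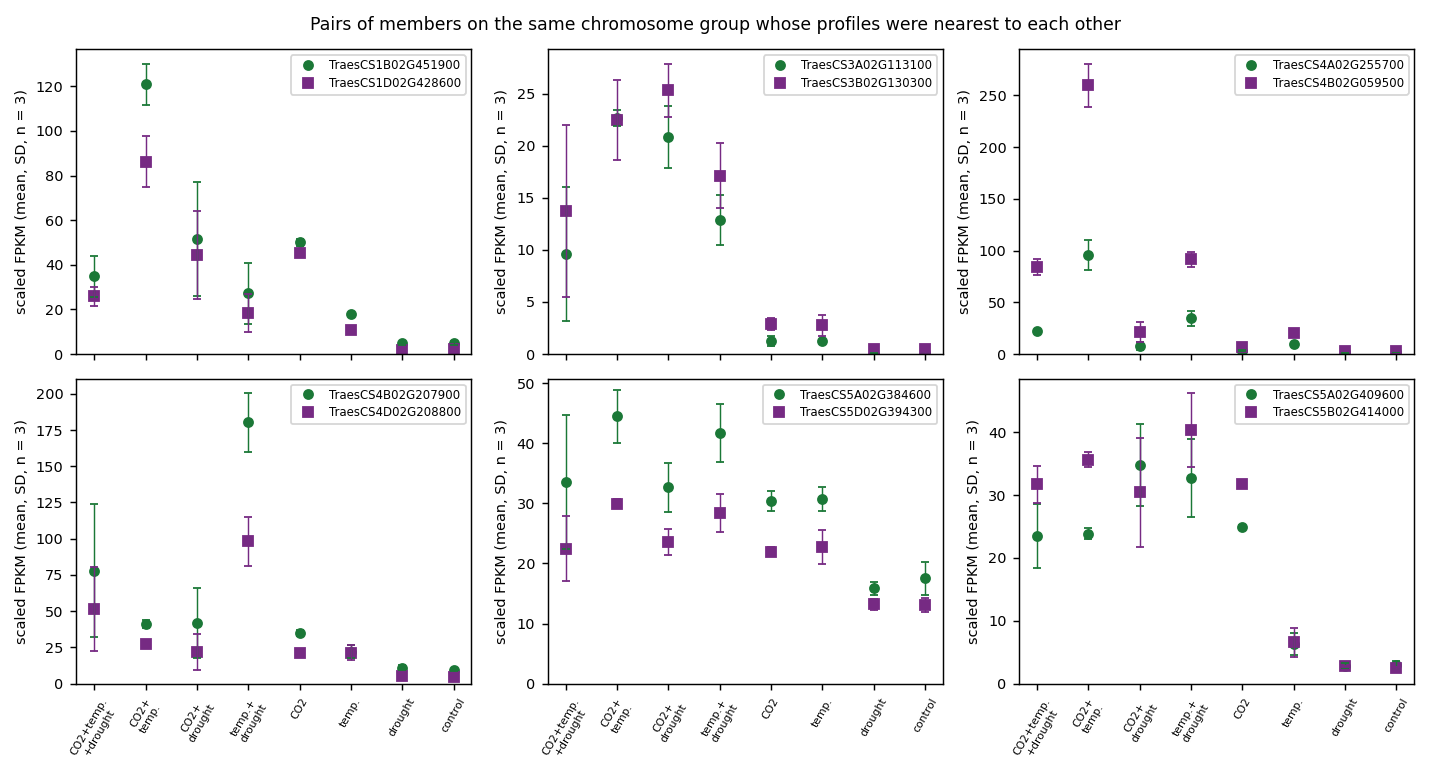
Mean scaled FPKM with SD (n = 3 libraries) in the 8 groups for the 6 pairs of members that were nearest to each other and lie on the same chromosome group in different subgenomes. Both genes are highest in CO2+temperature for TraesCS4A02G255700 and TraesCS4B02G059500 and in temperature+drought for TraesCS4B02G207900 and TraesCS4D02G208800.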

How the data were processed

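Leaf poly-A RNA was measured in 24 libraries, 8 groups of 3. The deposited values were FPKM, made by the authors for each library. Per the submitters' processing notes, the tools included HISAT2, Cuffdiff, DESeq2 and Trim Galore 0.4.1, with no role stated. Which build and annotation were used, and how libraries were scaled, is not stated in the labels. Depth in reads is unknown, so no counting interval was computed. A value of 0 can be a failed estimate.

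The members and lists were chosen with earlier results of these data known. From the deposited FPKM, scaled values were transformed as log2(FPKM + 1), which understates changes of low genes. The 45384 genes that reached 1 FPKM in 3 or more libraries were fitted in R 4.3.3 (limma 3.58.1) with a trended prior variance, 1 coefficient per group and two-sided tests. Benjamini-Hochberg adjustment ran over all these genes in each of 11 comparisons, 2 of them added after the data were seen. The fit was tested on simulated data for temperature+drought against temperature only, with normal noise of the same spread in all groups. The real groups differ in spread, so that test does not bear on how this affects the calls. The scaling assumes that the typical gene does not differ between groups.

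Named genes were the 3 members with the widest gap among those whose top group averaged 5 FPKM or more, the 2 just inside and 2 just outside the threshold, the 3 most abundant, and up to 2 higher and 2 lower per comparison: the largest called changes whose higher group averaged 5 FPKM or more and, between 2 groups, with no overlap. Alternatives were the pseudocount, the filter, the scaling, library quality weights, fewer libraries and a replicate block. Which plants made up a replicate is not stated, so p-values measure the spread between these libraries, which may be technical in part.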

Additional observations from a re-analysis of the deposited data

Results flagged for a closer look

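Differences between drought changes in different backgrounds were listed for each gene named under a drought comparison, with log2 values and adjusted p under 0.05 (limma, Benjamini-Hochberg). For CO2 against temperature, the change with drought differed by -3.12 in TraesCS3D02G346300, -2.92 in TraesCS4D02G240400 and -0.86 in TraesCS3D02G022100, and by 2.72 in TraesCS5A02G268400 and 0.89 in TraesCS6B02G346700. The last call was lost when the other libraries were left out of the fit and without any of 7 single libraries, with adjusted p up to 0.076 (limma).

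For CO2+temperature against temperature, the difference was -4.68 in TraesCS3D02G346300, -4.04 in TraesCS3A02G113100, -3.73 in TraesCS6B02G374100, -3.71 in TraesCS4A02G255700 and -3.22 in TraesCS3B02G131000. It was -3.21 in TraesCS6D02G295500, -2.99 in TraesCS4D02G240400, -2.97 in TraesCS6B02G346700 and -1.02 in TraesCS3D02G022100. TraesCS7D02G010900 differed the other way, by 0.80.

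For CO2+temperature against CO2, the difference was -4.71 in TraesCS3A02G113100, -4.06 in TraesCS6D02G295500, -3.86 in TraesCS6B02G346700, -3.72 in TraesCS3B02G131000 and -2.87 in TraesCS4A02G255700. It was -2.39 in TraesCS6B02G374100, -1.76 in TraesCS5A02G268400 and -1.56 in TraesCS3D02G346300, and 0.72 in TraesCS7D02G010900.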

How the results depend on the processing

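Of the counts and alternatives run, 189 values stayed within 1.5 times the reported count and 13 did not. With library quality weights, whose estimation stopped before it converged, the members called were 5 for drought, 59 for CO2+drought against CO2, 66 for CO2+temperature+drought against CO2+temperature, 44 for CO2 against temperature, 67 for CO2+drought against temperature+drought, 59 for the drought change under CO2 against temperature and 71 under CO2+temperature against CO2. Calls among all genes tested rose as well with these weights, to 12.5%, 61.1%, 61.2%, 56.4%, 87%, 63.3% and 60.5% in the same order. Drought against control called 2 members in a fit to only those libraries and 2 without the 2 libraries farthest from their groups (chosen after seeing the data), and 0 to 1 when single libraries were left out. The drought change under CO2 against temperature called 38 without those 2 libraries and 19 to 30 without single ones. For the rule, a pseudocount of 0.1 gave 158 genes (77 of the 78 kept), a gap of at least 1 gave 18, and leaving out single libraries gave 68 to 103. No named change turned its sign under the alternatives run, and in 18 instances the call was lost while 384 kept it. These instances cover only the genes named by the stated rule in 9 comparisons. The values listed for single genes in the 2 comparisons added later were not rerun under the alternatives. With the replicate number as a block, the counts were 1 for drought against control, 52, 37 and 40 for drought added to temperature, CO2 and both, 47 and 45 for CO2+temperature against temperature and CO2, 26 for CO2 against temperature, and 38 for CO2+drought against temperature+drought. They were 24 for the drought change under CO2 against temperature, and 57 and 48 under both against temperature and CO2. Same-numbered libraries correlated by -0.26 to 0.0844 after group means were removed, so the libraries share only a number, although in CO2+temperature against CO2 every library correlated best with its own number (0.0183 to 0.0366), a hint from the data and not the design. Depth in reads is unknown and limits low genes most.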

Other observations

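The rise under both CO2 and temperature was set beside the sum of the rises under each alone, all relative to control on the log2 scale. CO2+temperature lay above that sum in 29 members and below it in 49, with a median difference of -0.322 and a range from -2.95 to 2.83. The control group entered the choice of members, so these values are given without a test. TraesCS6D02G295500 and TraesCS4B02G059500 lay among those above the sum.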
